A study of Mus musculus with 13 samples.

Results

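At day 9 of reprogramming, where the co-repressor proteins NCoR and SMRT bound was compared with the histone mark H3K27ac, an acetylation of histone H3 found at active promoters and enhancers. The members are 3 of the 13 libraries of the series, each a mouse ChIP-seq experiment with a deposited peak list. The NCoR list held 5179 peaks and the SMRT list 4860, and merging every NCoR and SMRT peak that overlapped by at least 1 bp gave 5972 co-repressor sites. The H3K27ac list held 16428 peaks. Of the sites, 4067 held a peak of both co-repressors, 1112 of NCoR only and 793 of SMRT only.

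All 3 libraries came from mouse embryonic fibroblasts (MEFs) of strain C57BL/6J-OG2 that had received OCT4, SOX2, KLF4 and c-MYC (OSKM) 9 days earlier. The NCoR and SMRT cultures are labelled OSKM alone, whereas the H3K27ac culture also carried a FLAG control plasmid, so the marks were mapped in differently treated cultures. The other H3K27ac libraries, used here for reference, were OSKM cultures with FLAG or HDAC3-YF (a mutant of HDAC3 without deacetylase activity) at days 5, 9 and 13, untreated MEFs and untreated C57BL/6J embryonic stem cells (ESCs). The labels call these cultures transfected while the protocol describes viral supernatants, and the day 9 cells are presumed to be reprogramming intermediates. Each group was 1 library, so no value has a spread between replicates, no test between groups was made, and every 95% Wilson interval below covers counting of sites or genes only.

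NCoR and SMRT are large scaffold proteins that bind unliganded nuclear receptors and other transcription factors and that recruit and activate the histone deacetylase HDAC3. H3K27ac is written by the acetyltransferases p300 and CBP and is among the marks that HDAC3 can remove. They are best known for restraining the targets of nuclear receptors, and the series asks whether they cooperate with c-MYC to hold back reprogramming.

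A gene was counted as having a site or a peak where the centre of one lay within 1 kb of either annotated end of the gene. Among 21887 protein-coding genes, 4710 had a site (21.5% of all genes) and 9426 had an H3K27ac peak (43.1%). Both were present at 4432 genes (20.2%), a site only at 278 (1.27%), a peak only at 4994 (22.8%) and neither at 12183. The labelled cell state was checked against marker genes. Of 8 fibroblast markers 2 (Twist1 and Col1a2) had a day 9 peak, against 6 in MEFs, and of 8 pluripotency markers 0 had one, against 5 in ESCs. In the longer lists used below, 17 of 30 fibroblast and mesenchymal genes had a day 9 peak, against 23 in MEFs, and 8 of 30 pluripotency genes had one, against 20 in ESCs. Of 6 epithelial, 2 blood, 3 endothelial and 2 muscle markers 0 had one.

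Sequences from 5 promoters show what 4 co-repressor sites and 1 H3K27ac peak without a site covered. They are the stretches before a start in the RefSeq promoter table of GRCm38.p6 (the coordinates of mm10) that lay under a deposited 200 bp interval, 5′ to 3′ on the gene's strand. The gene table can place the start elsewhere: that of Hdac2 is at 36974297, the first base printed, so its stretch lies inside the annotated gene, and those of Farsa (84856969) and Pclo (14514906) fall within the last bases printed. Capitals mark the letters of any of 8 short motifs searched on both strands and allowed to overlap. These were the E-box CACGTG, the CCAAT box, the GC box core GGGCGG, the ETS core CCGGAA, the NRF1 core TGCGCA, the cyclic AMP element core TGACGT, the TATA box TATAAA and the nuclear receptor element AGGTCA. Genes with a site and a peak are represented by Hdac2, a histone deacetylase (chr10:36974297-36974496, plus strand), and Farsa, a subunit of phenylalanyl-tRNA synthetase (chr8:84856782-84856981, plus strand):
Hdac2: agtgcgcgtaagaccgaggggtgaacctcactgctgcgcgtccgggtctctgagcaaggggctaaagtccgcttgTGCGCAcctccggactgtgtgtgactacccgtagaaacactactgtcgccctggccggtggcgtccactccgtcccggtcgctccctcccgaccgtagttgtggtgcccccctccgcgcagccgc
Farsa: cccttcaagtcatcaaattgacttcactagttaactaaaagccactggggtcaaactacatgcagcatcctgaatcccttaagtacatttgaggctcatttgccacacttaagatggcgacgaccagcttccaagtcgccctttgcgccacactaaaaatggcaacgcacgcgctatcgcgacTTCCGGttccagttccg
Genes with a site only are represented by Pclo (chr5:14514717-14514916, plus strand) and Rims1 (chr1:22806159-22806328, minus strand), which encode scaffold proteins of the presynaptic active zone:
Pclo: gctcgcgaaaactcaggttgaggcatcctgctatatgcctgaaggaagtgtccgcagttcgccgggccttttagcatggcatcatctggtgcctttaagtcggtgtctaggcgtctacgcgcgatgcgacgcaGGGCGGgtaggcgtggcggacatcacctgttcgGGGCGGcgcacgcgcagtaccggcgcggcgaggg
Rims1: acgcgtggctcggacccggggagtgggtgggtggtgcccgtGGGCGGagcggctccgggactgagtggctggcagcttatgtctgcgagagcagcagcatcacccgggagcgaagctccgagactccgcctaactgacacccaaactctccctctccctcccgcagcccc
Psmc5, a proteasome ATPase, had an H3K27ac peak only (chr11:106255983-106256182, plus strand):
Psmc5: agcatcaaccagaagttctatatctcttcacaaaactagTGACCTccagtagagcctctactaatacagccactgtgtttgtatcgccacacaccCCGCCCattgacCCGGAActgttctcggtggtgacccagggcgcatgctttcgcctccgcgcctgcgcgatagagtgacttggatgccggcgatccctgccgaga
These stretches held 21, 11, 24, 14 and 13 CG dinucleotides in the order printed. Both site-only stretches held GGGCGG, the core of a GC box (2 matches in Pclo and 1 in Rims1), and so did that of Psmc5, while those of Hdac2 and Farsa did not. The 5 stretches are too few to stand for their classes. Among all promoters with sequence, GGGCGG was in 72.2% with both, 65.3% with a site only and 65.9% with a peak only.

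Where a co-repressor site lay at a gene end, H3K27ac was nearly always there too. Of the 4710 genes with a site, 94.1% (interval 93.4 to 94.7%) also had a peak, against 29.1% (28.4 to 29.8%) of the 17177 genes without one. The converse was far from complete, since 47.0% (46.0 to 48.0%) of the 9426 genes with a peak had a site. The product of the 2 shares would give 2028 genes with both, and the count was 2.18 times that number. At 4409 of the 4432 genes with both (99.5%) a site at the end lay within 1 kb of a peak, with a median of 152 bp between the centres. A rare exception was the anion exchanger gene Slc4a3, with 12919 bp between its site and its peak, near opposite ends of the gene. This share and median are largely set by the definition, since site and peak each had to lie within 1 kb of an end. The smallest distance among the sites of a gene was also the one taken. Genes can share a site, because neighbours can start from one promoter: 759 sites lay at the ends of 2 or more genes, and 1359 genes (28.9% of those with a site) shared one.

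Most centre-to-centre distances were short, with a long tail. The median distance from a site to the nearest H3K27ac peak was 207 bp (quartiles 95.8 and 439 bp), and 5130 of the 5972 sites (85.9%, 85.0 to 86.8%) lay within 1 kb. Distances of up to 100 bp were found at 1558 sites and 100 to 200 bp at 1336. From 500 to 1000 bp there were 437 sites, from 1 to 5 kb 92, from 5 to 20 kb 243, from 20 to 100 kb 345 and beyond 100 kb 162. These classes widen with distance, so their counts do not show a separate far group. Few sites lay just outside the 1 kb limit. By direct overlap 2895 sites (48.5%, 47.2 to 49.7%) met an H3K27ac interval. All H3K27ac starts lie on a 50 bp grid within each chromosome, and only 52 of 16407 gaps between neighbouring H3K27ac centres were under 1 kb. An acetylated promoter is thus listed as 1 interval of 200 bp, and a short distance can separate a site from a mark that is broader than its interval.

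**Figure D1:**
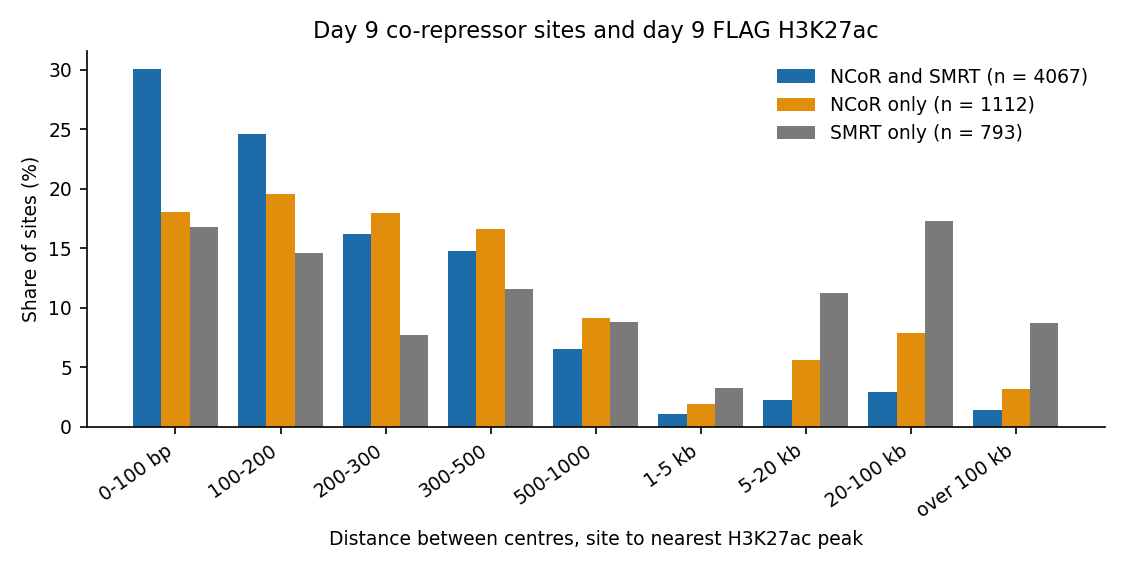
Share of sites (vertical axis, %) by the distance between the centre of a day 9 co-repressor site and the nearest day 9 FLAG H3K27ac peak (horizontal axis, classes of unequal width), for sites with both co-repressors, NCoR only and SMRT only. Sites with both are concentrated in the nearest classes. SMRT-only sites have larger shares than the others beyond 5 kb, where the classes are widest.

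The co-repressor held by a site went with its distance from H3K27ac. Sites with both NCoR and SMRT lay within 1 kb of a peak at 92.3% (91.4 to 93.0%), with a median of 179 bp. NCoR-only sites did so at 81.5% (79.1 to 83.6%, median 264 bp) and SMRT-only sites at 59.5% (56.1 to 62.9%, median 484 bp). These 3 intervals do not overlap. The division into NCoR only and SMRT only goes with 1 signed score: all 4003 intervals found in both lists carry equal scores there, and the scores run from -0.979 to 3.31 in the NCoR list and from -2.85 to 0.991 in the SMRT list. A site of 1 co-repressor thus lies toward an end of a shared scale. Part of the contrast went with position. At gene ends the shares were 96.0%, 91.8% and 86.4%, in gene bodies 82.8%, 63.9% and 34.2%, and between genes 63.0%, 42.6% and 19.05%, in the order both, NCoR only, SMRT only. The order was the same in all 3 positions, and the intervals of both and SMRT only did not overlap in any of them.

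Most sites lay at gene ends and most of those at the 5′ end. Of the sites 4449 (74.5%) lay within 1 kb of a gene end, 1050 (17.6%) elsewhere in a gene body and 473 (7.92%) between genes, and 94.3%, 69.0% and 44.4% of these had a peak within 1 kb. Strand was known for 3862 genes with a site at an annotated end, and the site lay at the 5′ end alone in 96.0%, at the 3′ end alone in 2.36% and at both in 1.61%. Around 4024 gene starts with a site within 1 kb, the median site centre was 122 bp into the gene, and 71.2% (69.8 to 72.6%) lay downstream of the start. Around 7991 starts with a peak, the median H3K27ac centre was 177 bp into the gene, and 76.0% (75.1 to 76.9%) lay downstream. Measured from the site, the nearest H3K27ac centre was on the downstream side at 59.7% of 3841 starts, with a median of 55 bp. H3K27ac centres stood at 174 bp where the start also had a site and at 180 bp where it did not, a difference smaller than the 50 bp grid.

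**Figure D2:**
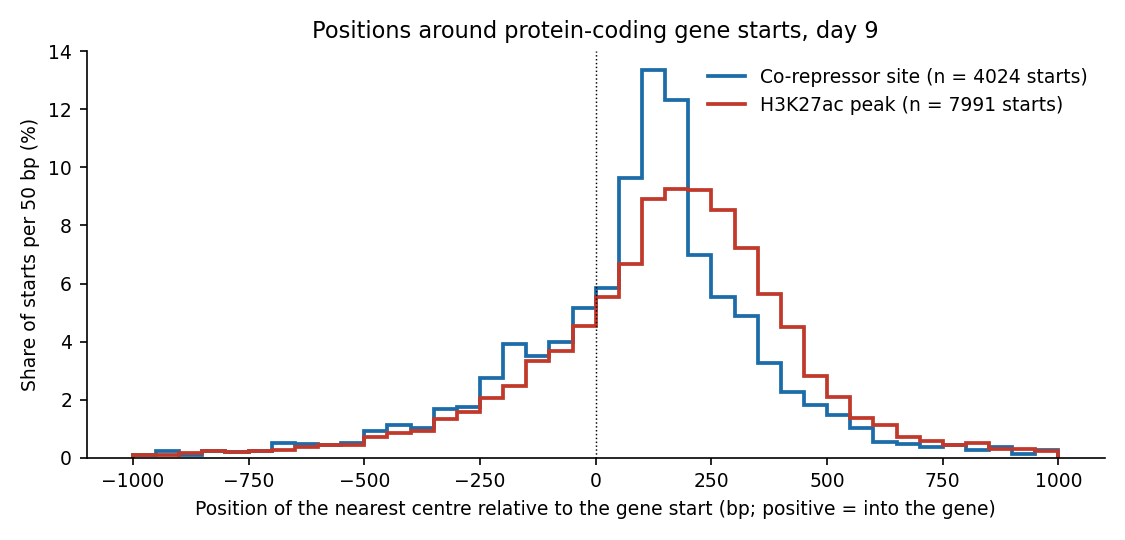
Position of the nearest co-repressor site centre (4024 starts) and the nearest day 9 FLAG H3K27ac centre (7991 starts) relative to the gene start in bp, as the share of starts in each 50 bp class. Both lines peak inside the gene, the sites at 100 to 150 bp and the H3K27ac centres more broadly from there outward.

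Acetylated gene ends with a higher deposited H3K27ac score had a site more often. The score is the authors' own, runs to a ceiling of 200 and has no stated scale, so it is used only to rank peaks within the list. Gene-end peaks were divided by score into 5 classes of equal size. In the lowest class 17.6% (15.9 to 19.5%) had a site within 1 kb, followed by 31.1%, 46.7%, 57.6% and, in the highest class, 75.4% (73.3 to 77.4%). Gene-end peaks with a site had a median score of 99.2 against 30.2 for those without, and 27.5% against 6.74% were at the ceiling. Away from gene ends the shares were 1.61% in the lowest of 5 such classes and 34.1% (31.8 to 36.4%) in the highest, and in gene bodies the median score was 88.3 with a site and 12.0 without. Seen from the peaks, 28.3% of all H3K27ac peaks had a site within 1 kb, with 45.7% at gene ends, 12.3% in gene bodies and 6.81% between genes.

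Acetylated genes on chromosome X were an exception, singled out after the values were seen. Of the 233 X-linked genes with a peak 18 had a site (7.73%, 4.94 to 11.9%), where autosomes ranged from 38.8% on chromosome 7 to 53.9% on chromosome 9. The median score of the strongest peak at these genes was 21.0 on X and 57.1 on autosomes. Within each of the 5 score classes the X share was still lower: 3.30%, 14.3%, 8.33%, 5.00% and 10.0% from lowest to highest, against 18.5%, 31.6%, 47.6%, 58.2% and 75.8% on autosomes. Only 10 X peaks fell in the highest class, and the X interval there reaches 40.4%. The X-linked genes with both included Rlim, a ubiquitin ligase that acts in X inactivation (site 42 bp from a peak of score 200), and Zrsr2, a splicing factor (62 bp, score 151). In ESCs, 1.36% of X-linked and 13.2% of autosomal H3K27ac peaks had an ESC site within 1 kb.

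**Figure D3:**
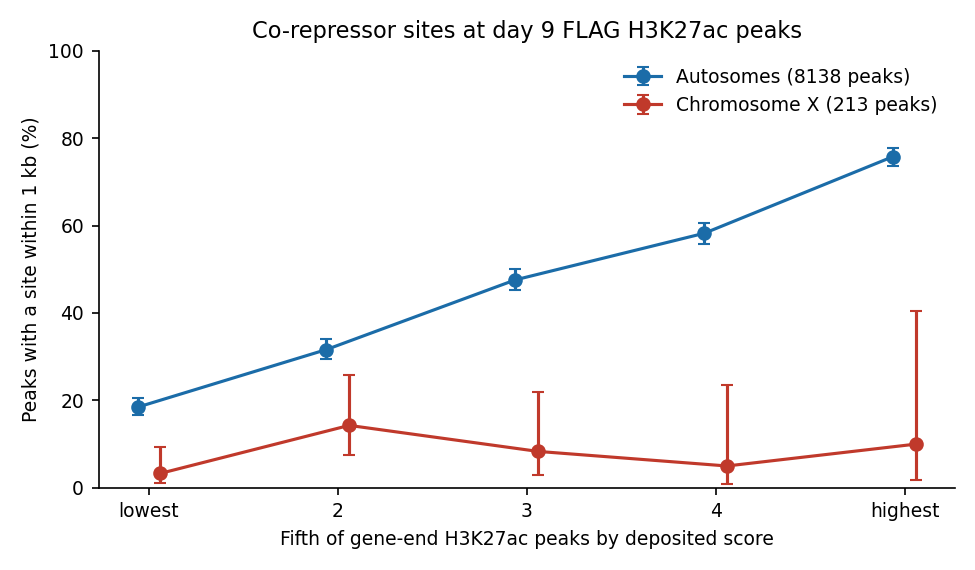
Share of gene-end day 9 FLAG H3K27ac peaks with a co-repressor site within 1 kb (vertical axis, %, with 95% Wilson intervals) by class of deposited score, 5 classes of equal size (horizontal axis), for 8138 autosomal and 213 X-linked peaks. The autosomal share goes from 18.5% to 75.8%, and the X-linked share stays at or below 14.3%.

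Acetylation at the sites was not a feature of day 9 alone. Of the 5130 sites within 1 kb of a day 9 FLAG peak 88.1% (87.2 to 88.9%) had a peak within 1 kb in each of the other 7 H3K27ac lists, and 4 had one in none of them. MEFs had such a peak at 97.9% and ESCs at 96.8%. Of the 842 sites without a day 9 FLAG peak, 445 (52.9%, 49.5 to 56.2%) had no peak in any list, 28.7% had one in ESCs and 26.4% in MEFs. ESC co-repressor sites lay within 1 kb of 36.8% of the acetylated and 12.8% of the unacetylated day 9 sites. Measured in the same way, 68.1% (66.8 to 69.3%) of the 5245 ESC sites lay within 1 kb of an ESC H3K27ac peak. That share lies below the 85.9% of day 9 sites within 1 kb of a day 9 FLAG peak, although the ESC H3K27ac list, with 25499 peaks, was longer. Of all 5972 day 9 sites, 87.2% lay within 1 kb of a peak of that ESC list and 87.8% within 1 kb of a MEF peak.

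The unacetylated sites were mostly distal. Of the 842, 253 lay at gene ends, 326 in gene bodies and 263 between genes. No other H3K27ac list had a peak at 18.97% (14.6 to 24.3%) of those at gene ends, 62.0% (56.6 to 67.1%) of those in gene bodies and 74.1% (68.5 to 79.1%) of those between genes. SMRT-only sites made up 22.9%, 44.2% and 45.2% of the 3 groups, against 13.3% of all sites. At day 9 itself, 4945 sites had H3K27ac within 1 kb in both the FLAG and the HDAC3-YF culture, 185 in FLAG alone, 104 in HDAC3-YF alone and 738 in neither.

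Genes with a site only were acetylated in MEFs or ESCs more often than in the cultures between them. Of the 278 genes, 146 (52.5%, 46.7 to 58.3%) had a peak at an end in MEFs and 155 (55.8%, 49.9 to 61.5%) in ESCs, but 67 (24.1%) at day 5 with FLAG, 71 (25.5%) at day 9 with HDAC3-YF and 97 (34.9%) at day 13 with FLAG. MEFs and ESCs both had one at 100 of the genes, MEFs alone at 46, ESCs alone at 55 and neither at 77. The MEF and ESC lists, with 26591 and 25499 peaks, were longer than the 6 OSKM lists, with 14251 to 16944. Genes with neither feature at day 9 had a peak at 11.1% in MEFs, 14.0% in ESCs and 4.00% at day 5 with FLAG, so the same order held there at lower shares. Both classes are defined by the absence of a peak in an OSKM culture, day 9 with FLAG. How far this choice lowers their shares in the other OSKM cultures was not tested. Genes with both were acetylated in 96.0 to 98.8% in every other list, and genes with a peak only in 83.2 to 93.4%. At 53 of the 278 genes (19.1%) the site did lie within 1 kb of a peak, which was itself more than 1 kb from the gene end.

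**Figure D4:**
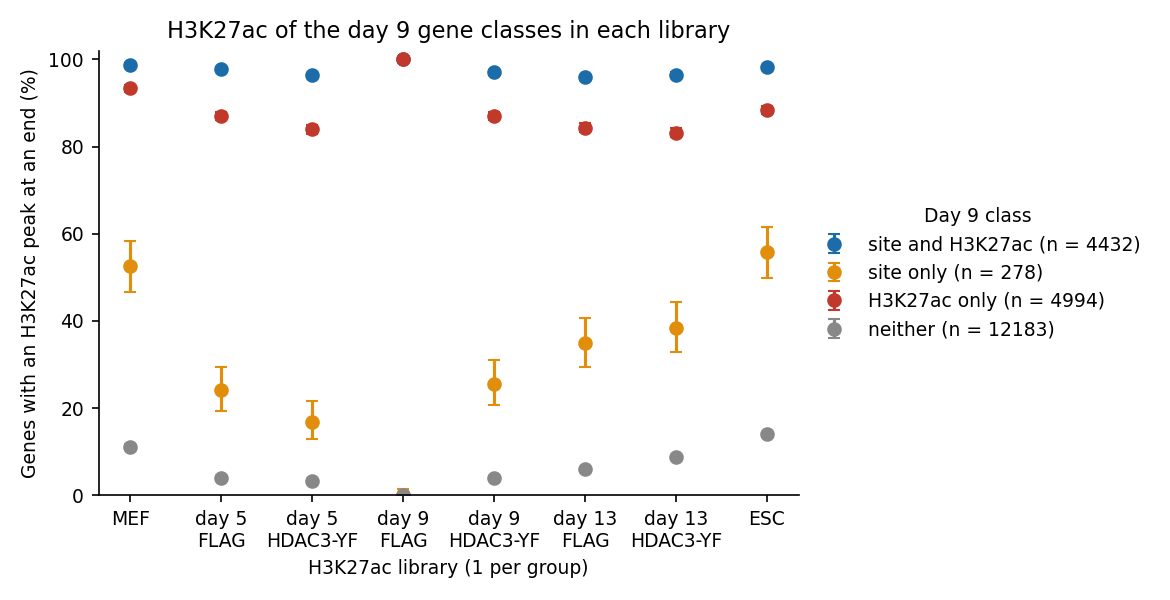
Share of genes with an H3K27ac peak within 1 kb of an end (vertical axis, %, with 95% Wilson intervals) in each of the 8 H3K27ac libraries, for the 4 gene classes defined at day 9 with FLAG, whose own values of 100% and 0% there are set by the definition. Genes with a site only stand at 52.5% in MEFs and 55.8% in ESCs and between 16.9% and 38.5% in the other OSKM cultures.

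Among the 10 site-only genes whose site lay farthest from H3K27ac, the other libraries differed in whether they were acetylated. Epha4, an ephrin receptor of axon guidance, had a SMRT-only site 969195 bp from the nearest peak and was acetylated in MEFs and ESCs but in none of the 6 OSKM libraries. Bmp2, a bone morphogenetic protein, showed the same pattern with a site of both co-repressors 705299 bp from a peak. Pclo had its site 967286 bp away, with a peak in ESCs and at day 13 with HDAC3-YF. Mme, a membrane peptidase of stromal cells, had peaks in 6 of the 8 libraries, including day 9 with HDAC3-YF, and lacked one at day 9 with FLAG and day 5 with HDAC3-YF. Kcnip4, a potassium channel subunit, and Alcam, an adhesion molecule, had a site of both co-repressors and no peak in any of the 8. The other genes of this set of 10 were Rims1, Trhde, Sdk1 and Dnah9, with distances from 360544 to 450421 bp.

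The promoters of genes with both features were the richest in CG dinucleotides. RefSeq promoter sequence, from 250 bases before to 50 after the start, was matched for 17492 of the 21887 genes (79.9%). That is under the 80% needed, so as a check of base composition it is void. The share was 82.2% for genes with both, 78.8% for site only, 79.8% for peak only and 79.2% for neither. These values therefore describe the matched promoters only. The median was 25 CG per promoter for genes with both (quartiles 18 and 32), 20 for peak only (14 and 28), 19 for site only (12 and 28) and 5 for neither (2 and 13). Among promoters with fewer than 10 CG, 27.7% (24.6 to 30.9%) of the acetylated genes had a site, and among those with 30 or more 59.6% (57.4 to 61.7%) had one. A start on the opposite strand within 1 kb, as in a divergent gene pair, was present at 22.2% (20.9 to 23.6%) of the matched genes with both, 15.2% of those with a peak only, 6.39% of those with a site only and 2.06% of those with neither.

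Motif matches are given for the same promoters. CCGGAA, the core bound by ETS factors, was found in 35.7% (34.2 to 37.3%) of the promoters with both, 29.02% of those with a peak only, 18.3% (13.7 to 23.9%) of those with a site only and 19.1% of all promoters. TGCGCA, contained in the NRF1 site, was in 18.97%, 14.3%, 6.39% and 10.1% in the same order, and TGACGT, contained in the cyclic AMP response element, in 15.9%, 11.9%, 5.02% and 8.71%. The E-box CACGTG, which MYC can bind, was in 11.5% (10.5 to 12.6%) with both and 10.2% (9.31 to 11.2%) with a peak only, intervals that overlap, against 5.48% with a site only and 7.91% overall. GGGCGG was in 72.2%, 65.9%, 65.3% and 46.3%. The nuclear receptor element AGGTCA was in 9.50%, 12.2%, 14.2% and 14.5%, and TATAAA in 5.65%, 6.35%, 7.31% and 13.3%. CCAAT was in 36.6%, 42.0%, 34.2% and 39.2%. Matches were counted on both strands and do not show binding.

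Gene groups differed in how many members had a site, and the groups below were chosen with earlier results of these data known. Of 35 lists 22 had a larger share of genes with a site than all genes (21.5%). Genes of the unfolded protein and heat shock response had both features at 15 of 20, the highest share of any list, and a peak only at 4. They included Hspa5, the chaperone BiP (site 43 bp from the peak), the sensors Ern1 (58 bp) and Eif2ak3 (157 bp), and the transcription factors Xbp1 (398 bp) and Atf4 (33 bp). The median score of the strongest peak at the acetylated genes of this list was 178, against 55.7 for all acetylated genes. Spliceosome genes had both at 16 of 25, among them Sf3b1 (60 bp), Sf3b2 (8 bp) and Sf3b3 (10 bp), and aminoacyl-tRNA synthetases at 12 of 20, including Kars (65 bp) and Dars (171 bp). Of all genes 20.2% had both. Among acetylated genes a site was present at 66.7% (46.7 to 82.0%) of the spliceosome list and 63.2% (41.0 to 80.9%) of the synthetase list. Both intervals hold the 47.0% of all acetylated genes, whereas that of the unfolded protein list (78.9%, 56.7 to 91.5%) lies above it.

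**Figure D5:**
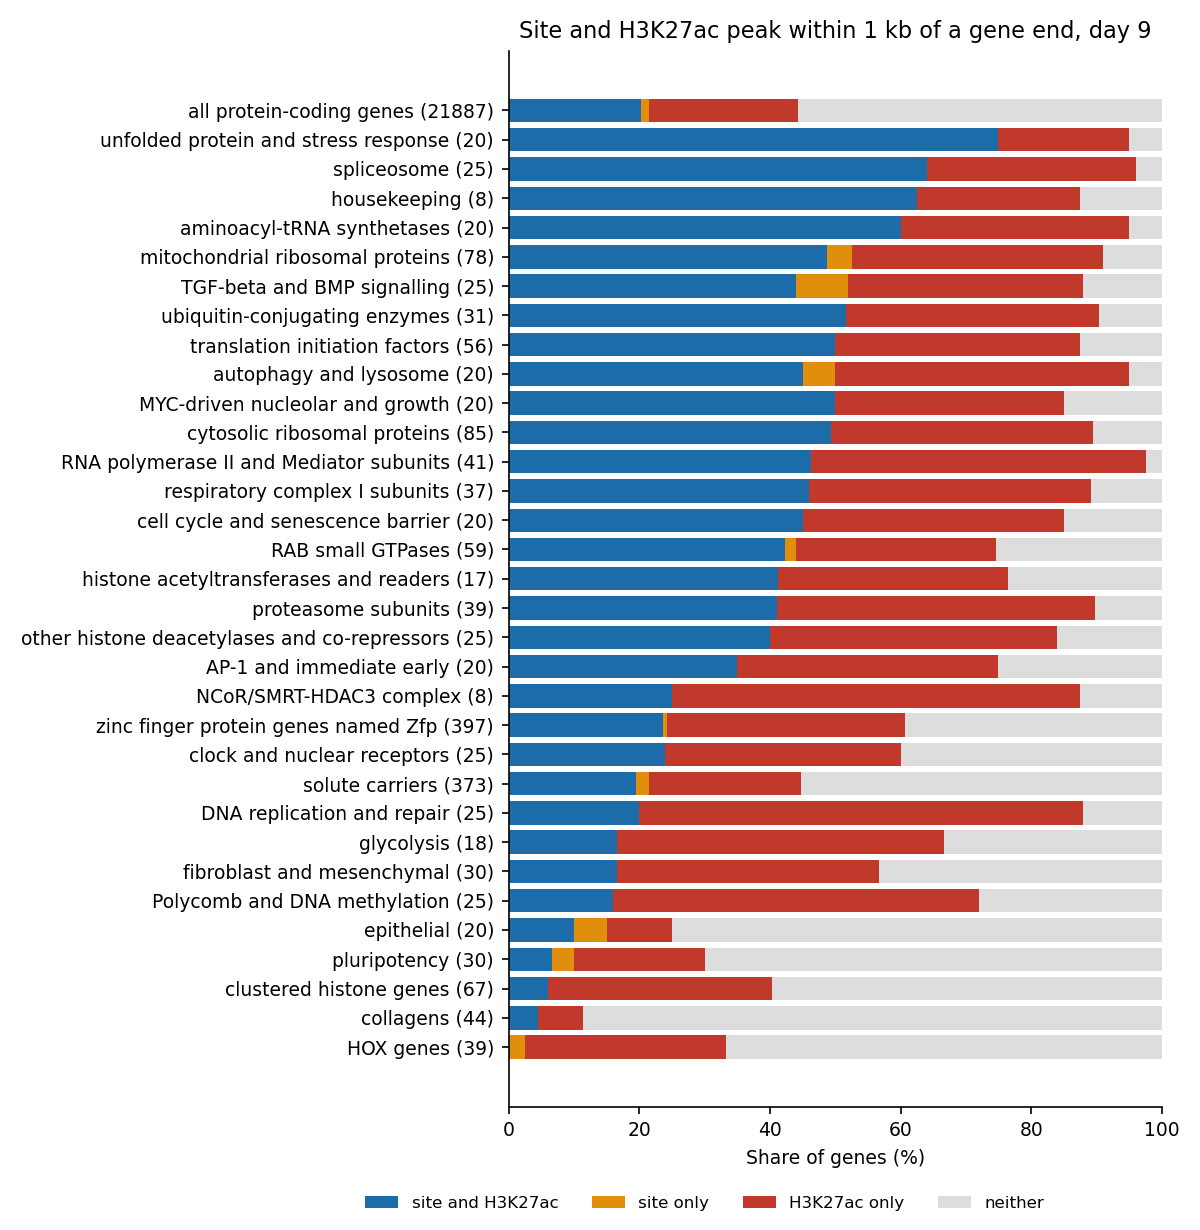
Share of the genes of each list (horizontal axis, %) with a site and an H3K27ac peak, a site only, a peak only or neither within 1 kb of a gene end at day 9, with the number of genes in parentheses and all protein-coding genes on top. Lists with fewer than 4 acetylated genes are left out. The unfolded protein and stress response list has the longest bar of genes with both, and site-only genes form a small part of every list.

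The machinery of protein synthesis and turnover and complex I had sites at 41.0 to 52.6% of their genes. Both features were present at 42 of 85 cytosolic ribosomal protein genes, 38 of 78 mitochondrial ribosomal protein genes, 28 of 56 translation initiation factor genes, 16 of 39 proteasome genes, 17 of 37 complex I genes and 16 of 31 genes of ubiquitin-conjugating enzymes. Acetylated genes of these lists had a site at 45.7 to 57.1%, where 47.0% of all acetylated genes did. MYC-driven nucleolar and growth genes had both at 10 of 20. H3K27ac lay 4 bp from the site at Nop56 and 30 bp from it at Ncl, which encode nucleolar proteins, and 98 bp at Odc1, the rate-limiting enzyme of polyamine synthesis. The 10 genes with most sites at their ends had 3 each, and they included Eif2s1, a subunit of initiation factor eIF2, with Atp6v1d, a proton pump subunit that shares its sites, Actl6a, a subunit of chromatin remodellers, and Polr3d, a subunit of RNA polymerase III.

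Of 25 DNA replication and repair genes 5 had a site (20%, 8.86 to 39.1%), where 21.5% of all genes did. The same 5 were among 22 acetylated genes of the list (22.7%, 10.1 to 43.4%), where 47.0% of all acetylated genes had a site, and the median top score was 40.3. They included the helicase subunits Mcm3 (SMRT-only site, 9 bp from a peak of score 7.18) and Mcm6 (56 bp), Rpa2 and Atr, while Mcm2, Mcm4, Mcm5 and Mcm7 had a peak only. Genes of Polycomb complexes and DNA methylation had a site at 4 of 18 acetylated genes (22.2%, 9.00 to 45.2%), among them Ezh2 (44 bp), Suz12 (8 bp) and Tet3. Their median top score was 95.3, above that of all acetylated genes. Glycolysis genes had both at 3 of 18 (25% of the acetylated, 8.89 to 53.2%, an interval that holds 47.0%) and a peak only at 9, including Gpi1, Pfkl and Tpi1. Clustered histone genes had both at 4 of 67 (14.8% of the acetylated, 5.92 to 32.5%) and a peak only at 23. Their median top score was 15.1, against 55.7 for all acetylated genes, and neighbours such as H2bc13, H2ac13 and H3c10 shared a peak.

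Chromatin regulators of acetylation itself were not set apart from other acetylated genes by their share with a site. Among acetylated genes the share was 28.6% (8.22 to 64.1%) for the NCoR/SMRT-HDAC3 complex and 53.8% (29.1 to 76.8%) for acetyltransferases and readers. It was 47.6% (28.3 to 67.6%) for other deacetylases and co-repressors. Each interval holds the 47.0% of all acetylated genes. Of the NCoR/SMRT-HDAC3 complex Hdac3 had both features, with an NCoR-only site 137 bp from a peak, and Ncor1, Tbl1xr1, Gps2 and Kdm4a had a peak only. The acetyltransferase genes Ep300 (246 bp) and Crebbp (571 bp) had both, and so did 10 of 25 genes of other deacetylases and co-repressors, Hdac2 (290 bp), Kdm1a (142 bp) and Mta2 (476 bp) among them. Hdac1, Hdac6, Hdac10 and Hdac11 had a peak only.

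The share of genes with a site was 10% (3.46 to 25.6%) in the pluripotency list, 16.7% (7.34 to 33.6%) in the fibroblast list and 15% (5.24 to 36.0%) in the epithelial list. All 3 intervals hold the 21.5% of all genes, and the pluripotency count of 3 was 5 with windows of 2.5 kb. Of 30 pluripotency genes 2 had both features, 1 had a site only and 6 a peak only. At Sox2 the site (chromosome 3, 34650848 to 34651047) lay 58 bp from a peak of score 200, but both fall within the transcribed gene, where the introduced and the endogenous copy cannot be told apart. Klf2 had its site 299 bp from a peak of score 25.3. Fgf4, a growth factor gene active in ESCs, had a site only, 53711 bp from the nearest peak. Its ends held 2 peaks in ESCs, 1 in each day 13 culture and 0 in the MEF, day 5 and day 9 libraries. Pou5f1, Klf4, Klf5 and Tbx3 had a peak only, and Pou5f1 and Klf4 were introduced as well. The Pou5f1 peak lay within its annotated gene. That of Klf4 (chromosome 4, 55533010 to 55533209) lay outside its annotated gene (55527137 to 55532475).

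Fibroblast and mesenchymal genes had both at 5 of 30 and a peak only at 12. The 5 were Twist1 (156 bp) and Snai1 (55 bp), transcription factors of the mesenchymal state, the intermediate filament gene Vim (268 bp), and the matrix genes Fn1 (319 bp) and Fbn1 (183 bp), with a site of both co-repressors at each. The Vim peak was at the score ceiling of 200, and that of Snai1 scored 14.3. Snai1 had no peak at an end in the HDAC3-YF culture of day 9 or day 13, nor in ESCs, and had 1 or 2 in the MEF, day 5 and FLAG libraries. Twist1 and Vim had 1 in every library. Of 20 epithelial genes Dsp (512 bp) was among those with both, and Epcam had an NCoR-only site 23492 bp from a peak. Epcam, which encodes an epithelial adhesion protein, had 1 peak in ESCs, at day 9 with HDAC3-YF and in both day 13 cultures, and 0 in the other libraries. Of 26 markers of other lineages 0 had a site and 2 had a peak, and of 1110 olfactory receptor genes 0 had a site and 1 had a peak. HOX genes had a site at 1 of 39, Hoxc10 (0 at gene starts alone), and a peak only at 12.

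Of the lists of regulators, a site was present at 45% of the cell cycle and senescence genes (25.8 to 65.8%) and 52% of the TGF-beta and BMP genes (33.5 to 69.97%), intervals above the 21.5% of all genes. The intervals of the AP-1 list (35%, 18.1 to 56.7%) and the clock and nuclear receptor list (24%, 11.5 to 43.4%) hold 21.5%. Among acetylated genes these 4 lists had a site at 40 to 55%, with intervals that hold the 47.0% of all acetylated genes. With gene starts alone, where fewer genes could be counted, 7 TGF-beta and BMP genes had a site in place of 13. Of 20 cell cycle and senescence genes 9 had both, including the inhibitors Cdkn2a (288 bp) and Cdkn2b (198 bp), the tumour suppressor Rb1 (227 bp) and the p53 ligase Mdm2 (238 bp), while Cdkn1a, Cdkn1b and Trp53 had a peak only. TGF-beta and BMP genes had both at 11 of 25, among them the receptor Tgfbr1 (114 bp), the effectors Smad4 (436 bp) and Smad5 (211 bp) and the SMAD inhibitor Skil (101 bp). Bmp2 and Id2, a BMP target, had a site only. Id2 had its NCoR-only site 3514 bp from a peak and was acetylated in MEFs, at day 9 with HDAC3-YF and at day 13 with FLAG. AP-1 and immediate early genes had both at 7 of 20, Jun (82 bp) and Fosl2 (54 bp) with peaks at the ceiling among them, and Fos and Fosb had a peak only, also at the ceiling. Clock and nuclear receptor genes had both at 6 of 25, namely Nr1d2 (52 bp), Clock (317 bp), Per2 (169 bp), Per3 (228 bp), Nr1h3 (220 bp) and Rxrb (0 bp).

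The 10 genes with most peaks at their ends and no site had 2 or 3 peaks each. They included Foxc1, a forkhead transcription factor, whose peak lay 527021 bp from the nearest site, and Tle3, a co-repressor of the Groucho family (667355 bp). Slc10a3, Gm44504, Atp6ap1 and Tspyl2 of this set lie on chromosome X, with 664902 to 1025234 bp from peak to site.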

How the data were processed

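NCoR, SMRT and H3K27ac ChIP-seq peaks were analysed as the authors deposited them, 1 list per library. Bowtie2 2.2.0, MACS 1.4 and the build mm10 are named per the submitters' processing notes; the sources used here do not give their settings, the read depths or how 200 bp intervals were made. Each deposited file carries a score: for H3K27ac it stops at 200, and for both co-repressors it is signed, so only the first was used to rank peaks. The gene table and promoter sequences are from RefSeq, GRCm38.p6, of which promoters on chromosome 18 were not used here. Strand came from the promoter table, 1 start per gene, the one nearest the annotated 5′ end.

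Distances, classes and Wilson intervals (95%) were computed in Python 3.11.15 with numpy 2.4.6, pandas 2.3.3 and scipy 1.17.1, and the interval functions were tested on simulated data. Sites at the ends of a gene were counted by centre. The 35 gene lists and the members were chosen with earlier results of these data known. Their symbols all matched, 1 by an older symbol. Named genes were up to 6 per list with both features, 6 with a site only and 4 with a peak only, in list order, plus 10 per class genome-wide, by distance or number. Sequences were the named promoters most covered by an interval. Some genes of the lists are not reported here.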

Additional observations from a re-analysis of the deposited data

How the results depend on the processing

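Counts of genes with both features ranged from 3405 to 4996 over 9 alternatives and stayed within 1.5 times the count of 4432. Genes with a site only numbered 511 with 500 bp around gene ends, 158 with sites of both co-repressors and 836 with the top 50% of H3K27ac peaks by score, where fewer peaks remain to be matched; genes with a peak only then numbered 3020. The share of site genes with a peak was 87.5% (500 bp), 94.9% (2.5 kb), 95.4% (gene starts alone), 95.6% (sites with both co-repressors), 94.9% (NCoR list alone), 82.3% (top 50%) and 93.0% (HDAC3-YF H3K27ac in place of FLAG). The share of peak genes with a site was 45.2% with 500 bp, 36.1% with sites of both co-repressors, 44.0% with NCoR alone, 39.9% with SMRT alone and 56.2% with the top 50%. The share of sites within 1 kb was 73.4% with the top 50%, 92.3% for sites with both co-repressors, 89.9% and 86.9% for the NCoR and SMRT lists, and 84.5% with HDAC3-YF. Merging H3K27ac peaks within 1 kb and measuring to the edges gave a median of 108 bp by construction. Without chromosomes X and Y no value moved beyond its interval. Of 330 named genes, 74 fell in another class with 500 bp, 64 with the top 50% and 10 with 2.5 kb. No paired analysis was possible because each group was 1 library. Read depth is unknown, so a missing peak does not show that the mark or the protein was absent.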
